A study of Homo sapiens with 4 samples.

Results

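The genes described here are 10 genes of fatty acid synthesis and desaturation, FASN, SCD, ACACA, ACLY, ACSS2, FADS1, FADS2, ELOVL5, ELOVL6 and SREBF1, chosen by name as the lipogenic pathway under the transcription factor SREBP1. They are 10 of 19776 genes on the array, and every probe set annotated to them was taken, 26 of 54613. The cells were M14, an established human melanoma line, stably transfected, selected with G418 and sorted for green fluorescence. The line labelled ARHGAP8 carried pIRES2-eGFP encoding a variant of ARHGAP8 that lacks 1 exon, with a FLAG epitope at its amino end, and the empty-vector line carried pIRES2-eGFP alone. Both were grown in medium with serum and G418 for 4 days, either embedded in growth factor-reduced Matrigel (3D) or on plastic coated with bovine type I collagen (2D). The 4 groups were thus the ARHGAP8 line in 3D, the empty-vector line in 3D, the ARHGAP8 line in 2D and the empty-vector line in 2D, with 1 Affymetrix array each. As each plasmid is represented by 1 transfected population, an effect of the plasmid and a difference between populations cannot be told apart. The cultures differed both in geometry and in matrix, and effects of these cannot be told apart either.

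Cells make fatty acids from citrate exported by mitochondria. ACLY splits the citrate into acetyl-CoA, ACSS2 makes acetyl-CoA from acetate, ACACA carboxylates it to malonyl-CoA, and FASN builds palmitate from these units. ELOVL6 lengthens palmitate to stearate, SCD puts the first double bond into saturated chains, and FADS1, FADS2 and ELOVL5 desaturate and lengthen polyunsaturated chains. SREBP1, encoded by SREBF1, is held in the endoplasmic reticulum by SCAP and the INSIG proteins and is released to the nucleus when membrane sterols run low. It acts on many of these promoters together with the CCAAT-binding factor NF-Y and with SP1, which binds GC boxes.

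Values are deposited signal intensities in arbitrary units. A value below 72.3, the median of all scaled signals, was set to that floor for every ratio, so ratios in which 1 value was floored are bounds. Log2 ratios between single arrays have no replicate error. Probe sets above the floor on at least 2 arrays, 28651 in all, were fitted in limma with additive terms for culture and plasmid, and a gene was said to have risen or fallen only at a Benjamini-Hochberg adjusted p under 0.05. Standard errors (SE) from this fit are moderated over probe sets and rest on 1 residual degree of freedom of the gene itself. Signals of different probe sets are not on a common scale and were not compared with each other.

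The ARHGAP8 transcript was not readable, since its 4 probe sets read between 4.02 and 14.8 on all arrays, below the floor, and are shared with PRR5-ARHGAP8. Where they lie relative to the transfected coding region was not analysed here, so they do not check the labels. The 3D array of the ARHGAP8 line stood apart in its control probe sets, with median ribosomal RNA signals of 1390 for 28S and 626 for 18S, while the remaining arrays had 94.4 to 119 for 28S and 27.7 to 49.4 for 18S. For ACTB the ratio of 3' to 5' control signal, a measure of RNA integrity, was 1.32 and 1.23 in 3D in the ARHGAP8 and empty-vector lines, against 1.05 and 1.10 in 2D. The same ratio for GAPDH differed less, at 0.925 and 0.901 in 3D against 0.899 and 0.874 in 2D. Of 9 melanocytic markers on the array, 8 were above the floor on every array, MITF, SOX10 and MLANA among them, and PMEL was below it on all 4. No leukocyte or keratinocyte marker was above the floor (0 of 3 each), while 3 of 4 fibroblast markers were on every array, COL1A1, COL1A2 and DCN. Adipocyte markers, as cells with high lipogenesis, were above it in 3D for 2 of 4 genes in the ARHGAP8 line, PLIN1 at 83.7 and FABP4 at 81.2, and for 1 in the empty-vector line, and in 2D for 0. Hepatocyte markers were above it for at most 1 of 3 genes on any array. The summed adipocyte marker signal was 194 and 141 in 3D in the ARHGAP8 and empty-vector lines and 126 and 118 in 2D, sums made mostly of signals under the floor.

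The promoters of 3 genes that rose in 3D and of the 1 that fell are shown, because the culture comparison turns on them. They come from RefSeq sequence of GRCh38.p14, which held 14 windows for 9 of the 10 genes and none for FASN. Each window runs from 250 bases before to 50 bases after an annotated start, and where a gene had several windows the most upstream is printed. Capitals mark the CCAAT box (CCAAT, or ATTGG on the other strand) and the GC box (GGGCGG, or CCGCCC), and no marked motifs overlap in these 4 windows.
SCD, chr10:100346983-100347282, plus strand: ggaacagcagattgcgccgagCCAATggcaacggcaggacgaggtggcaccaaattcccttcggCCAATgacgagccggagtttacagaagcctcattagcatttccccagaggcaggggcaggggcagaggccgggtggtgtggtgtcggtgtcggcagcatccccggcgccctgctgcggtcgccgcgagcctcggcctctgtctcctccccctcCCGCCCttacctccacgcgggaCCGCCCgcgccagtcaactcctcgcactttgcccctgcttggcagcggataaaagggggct
ACLY, chr17:41918973-41919272, minus strand: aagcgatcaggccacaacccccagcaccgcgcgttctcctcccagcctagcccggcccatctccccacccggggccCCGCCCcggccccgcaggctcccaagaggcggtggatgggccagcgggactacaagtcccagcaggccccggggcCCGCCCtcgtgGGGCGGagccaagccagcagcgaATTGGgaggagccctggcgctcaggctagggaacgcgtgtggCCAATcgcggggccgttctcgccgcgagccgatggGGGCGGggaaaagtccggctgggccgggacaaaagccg
ACSS2, chr20:34874739-34875038, plus strand: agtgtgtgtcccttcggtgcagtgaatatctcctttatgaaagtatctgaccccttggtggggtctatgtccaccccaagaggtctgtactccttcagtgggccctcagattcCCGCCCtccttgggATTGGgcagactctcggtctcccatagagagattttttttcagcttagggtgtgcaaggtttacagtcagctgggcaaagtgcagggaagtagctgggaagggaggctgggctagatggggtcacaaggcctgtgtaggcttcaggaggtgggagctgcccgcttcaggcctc
ELOVL6, chr4:110198566-110198865, minus strand: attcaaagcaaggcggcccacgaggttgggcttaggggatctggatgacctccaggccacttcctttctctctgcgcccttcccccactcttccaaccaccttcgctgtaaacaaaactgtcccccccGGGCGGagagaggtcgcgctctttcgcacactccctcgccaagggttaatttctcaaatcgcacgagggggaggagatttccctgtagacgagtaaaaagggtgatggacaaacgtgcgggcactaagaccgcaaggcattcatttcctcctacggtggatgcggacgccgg
The SCD window held 2 CCAAT boxes and 2 GC boxes, that of ACLY 2 and 4, and that of ACSS2 1 and 1, while that of ELOVL6 held 0 and 1. The ACSS2 window that is not printed held 0 CCAAT boxes and 3 GC boxes, and the ACLY window that is not printed held 2 and 4. Over the 10 genes, a CCAAT box was found in 8 of 14 windows, for 6 of 9 genes, against 34.6% of 35116 promoter windows of the same length. A GC box was found in 11 of 14 windows, for 8 of 9 genes, against 45% of all windows. The letters TCACNCCAC, a sterol regulatory element, searched on both strands, were in 0 of the 14 windows and in 1.13% of all windows. The E-box CACGTG was in 1 of 14 windows, that of ELOVL5, and in 7.26% of all. Windows of a gene with several starts can overlap, and a match is a match of letters only.

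The first comparison set culture in Matrigel against culture on collagen-coated plastic. SCD, ACSS2 and ACLY rose in 3D and ELOVL6 fell. SCD rose 3.77-fold, ACSS2 3.12-fold and ACLY 1.85-fold as averages over the lines. In 3D 3 of the 10 genes rose, by their brightest probe set, where 1.84% of 13240 genes did, and 1 fell, where 2.27% did. By probe set, 7 of the 23 tested rose and 1 fell, against 1.63% and 1.87% of all probe sets tested. Of those 7, 4 belong to SCD and 2 to ACLY, and they are not independent. The median culture difference of the 10 genes was 0.39 log2, against 0.03 over all genes tested. The 3' to 5' ratio of ACTB was also higher on both 3D arrays, and that of GAPDH only slightly higher. FABP4, the 1 adipocyte marker tested, read 0.11 without passing (adjusted p 0.821 in limma). Of 8 tested melanocytic markers 2 rose, TYR by 0.88 and TYRP1 by 1.47, and 0 fell, against 1.84% and 2.27% of all genes. SOX10 and S100B read -0.35 and -0.08 without passing, and the other SOX10 probe set read -1.76. The part of the 3' to 5' ratios and of these markers in the lipogenic differences was not tested. At 2-fold or more by ratio, 2 of the 10 genes were higher in 3D in the ARHGAP8 line, against 1.81% of all genes, and 0 lower, against 1.96%. In the empty-vector line 4 were higher, against 1.73%, and 0 lower, against 1.29%. The ratio was below 0 for 4 of 10 genes in the ARHGAP8 line (45.8% of all genes) and for 1 in the empty-vector line (47.9%). By probe set it was below 0 for 8 of 23 in the ARHGAP8 line (45.3%) and 4 of 23 in the empty-vector line (48.3%).

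SCD, the stearoyl-CoA desaturase that makes oleate, had signals of 3339 and 4886 in 3D in the ARHGAP8 and empty-vector lines, against 843 and 1363 in 2D. Both 3D arrays lay above both 2D arrays. SCD rose by 1.91 ± 0.17 log2 (moderated SE; limma over 4 arrays, adjusted p 1.92e-05). Its other 3 probe sets also rose, by 1.98, 2.04 and 2.17, close to the brightest. By its ratio in the ARHGAP8 line SCD was among the 10 highest of 11202 genes above the floor on all arrays, and in the empty-vector line among the 19 highest.

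ACSS2, which makes cytosolic acetyl-CoA from acetate, had 1286 and 2385 in 3D in the ARHGAP8 and empty-vector lines and 562 in 2D in each. It rose by 1.64 ± 0.20 log2 (adjusted p 0.000309 in limma). The ratio was 1.19 in the ARHGAP8 line and 2.08 in the empty-vector line, the 7th highest of 11202 genes there. It has 1 probe set on the array. ACLY had 2476 and 3002 in 3D in the ARHGAP8 and empty-vector lines, against 1426 and 1530 in 2D. It rose by 0.88 ± 0.17 log2 (adjusted p 0.0089 in limma), with ratios of 0.80 in the ARHGAP8 line and 0.97 in the empty-vector line. Of its other probe sets, 1 rose by 0.77 (adjusted p 0.0477 in limma) and 1 read 0.77 without passing (adjusted p 0.0787 in limma). That last probe set read 494 and 1175 in 3D in the ARHGAP8 and empty-vector lines and 433 and 463 in 2D, so its increase lay mainly in the empty-vector line.

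ELOVL6, the elongase that takes palmitate to stearate, moved the other way. Its signals were 451 and 459 in 3D in the ARHGAP8 and empty-vector lines, against 733 and 701 in 2D. The lines nearly coincided in each culture, and both 3D values lay below both 2D values. ELOVL6 fell by 0.66 ± 0.17 log2 (adjusted p 0.0466 in limma), close to the threshold, and 8 of 11 other settings did not call it, among them quantile normalization (adjusted p 0.114 in limma). Its next probe set read 181 and 178 in 3D against 223 and 281 in 2D, a difference of -0.48 that did not pass (adjusted p 0.327 in limma), and the third was close to the floor. ELOVL6 makes the stearate that SCD desaturates, and in both lines SCD read higher and ELOVL6 lower in 3D.

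**Figure D1:**
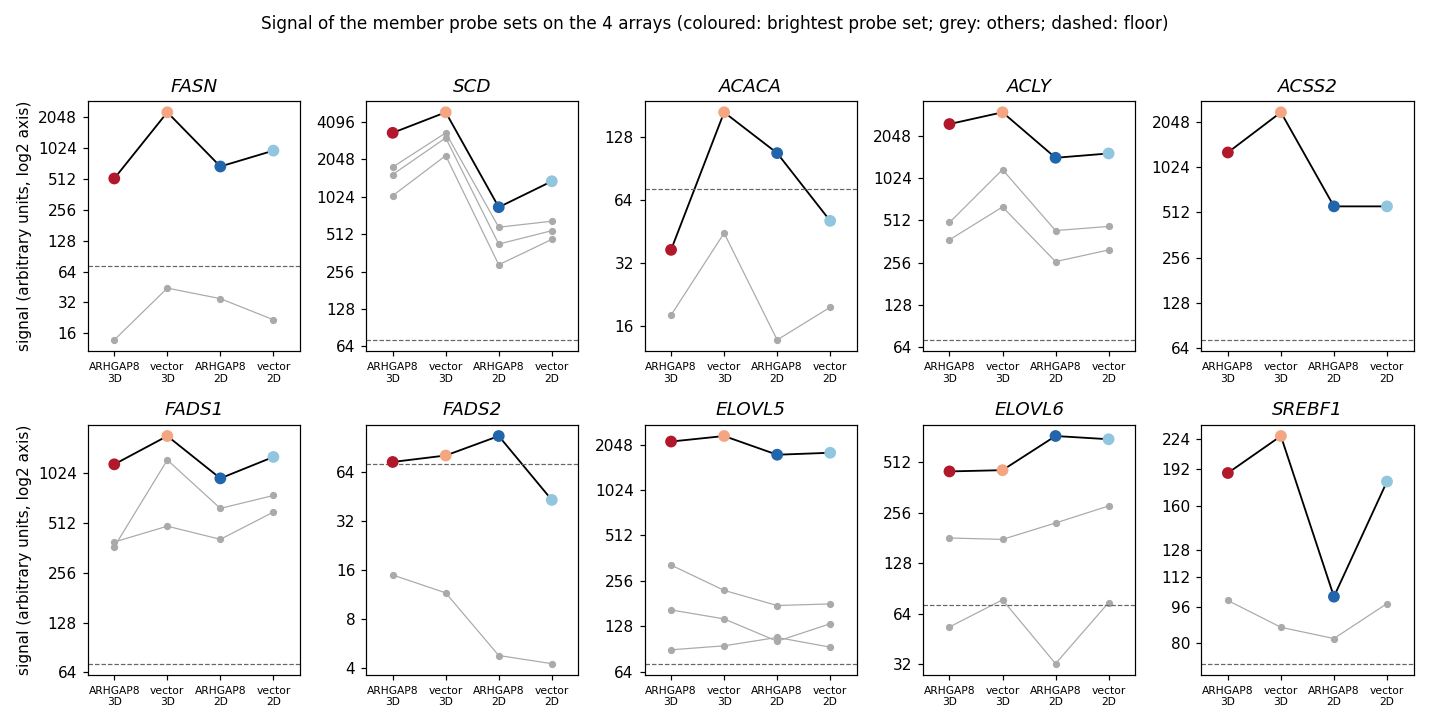
Signal of each of the 26 probe sets on the 4 arrays, 1 panel per gene, on a log2 axis in arbitrary units; coloured points are the brightest probe set of a gene, grey points the others, lines join 1 probe set, and the dashed line is the floor of 72.3. All 4 probe sets of SCD are higher in 3D than in 2D in both lines, while the brightest probe set of FASN is at 2283 in the empty-vector line in 3D and at 517 in the ARHGAP8 line in 3D.

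The polyunsaturated branch and the transcription factor did not pass for the culture. ELOVL5, an elongase of polyunsaturated chains, had 2147 and 2336 in 3D in the ARHGAP8 and empty-vector lines, against 1756 and 1809 in 2D, a difference of 0.33 ± 0.17 log2 (adjusted p 0.321 in limma). Its 3 other probe sets ranged from -0.12 to 0.59. FADS1, the delta-5 desaturase, had 1163 and 1725 in 3D in the ARHGAP8 and empty-vector lines, against 956 and 1289 in 2D, a difference of 0.35 ± 0.16 (adjusted p 0.272 in limma). The annotation of its 3 probe sets also lists MIR1908, a microRNA gene, so the values are shared, and the dimmer probe sets read -0.03 and -0.17. FADS2, the delta-6 desaturase, lay near the floor, at 73.9 and 81.0 in 3D in the ARHGAP8 and empty-vector lines, against 107 and 43.2 in 2D. Its other probe set was below the floor on all arrays, so no direction can be read for FADS2.

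SREBF1 had 189 and 227 in 3D in the ARHGAP8 and empty-vector lines, against 101 and 181 in 2D. Its difference of 0.61 ± 0.27 log2 did not pass (adjusted p 0.252 in limma), and its ratio was 0.90 in the ARHGAP8 line and 0.33 in the empty-vector line. The other probe set, at 82.0 to 99.3 and close to the floor, read 0.05. These signals measure the transcript and not the processed protein.

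FASN and ACACA, the enzymes that build the chain, had ratios of opposite sign in the lines. FASN had 517 in 3D and 676 in 2D in the ARHGAP8 line, and 2283 in 3D and 966 in 2D in the empty-vector line. The 3D over 2D ratio of FASN was -0.39 in the ARHGAP8 line and 1.24 in the empty-vector line, and their average of 0.43 ± 0.27 did not pass (adjusted p 0.438 in limma). ACACA had 37.1 in 3D and 107 in 2D in the ARHGAP8 line, and 168 in 3D and 51.0 in 2D in the empty-vector line. Counted from the floor, ACACA was at least 1.49-fold lower in 3D in the ARHGAP8 line and at least 2.33-fold higher in 3D in the empty-vector line. With 1 array per group, neither difference between the lines was tested. The other probe sets of both genes were below the floor on all arrays, so each direction rests on 1 probe set. A ratio above 0 in the empty-vector line and below 0 in the ARHGAP8 line was also found for 16.6% of all 13240 genes.

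**Figure D2:**
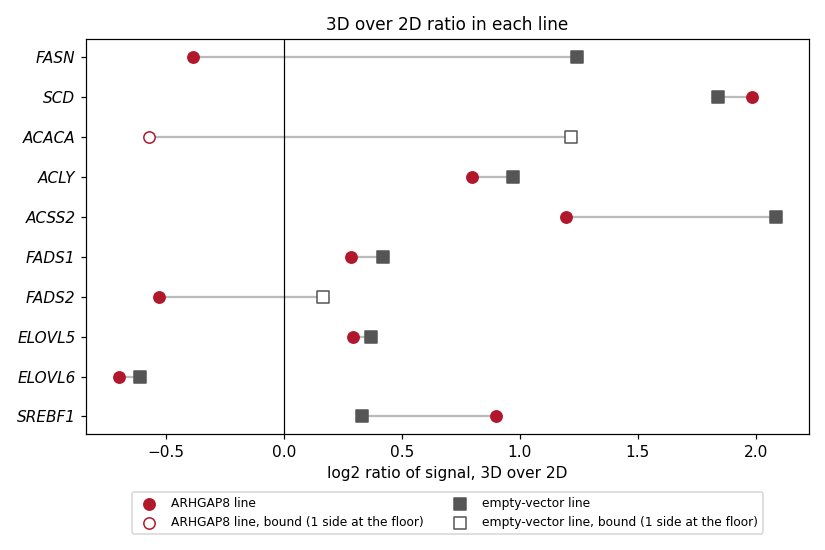
Log2 ratio of 3D over 2D signal for the brightest probe set of each gene, in the ARHGAP8 line (circles) and the empty-vector line (squares); open symbols are bounds with 1 side at the floor. SCD, ACSS2 and ACLY lie right of 0 and ELOVL6 left of 0 in both lines, and FASN lies at -0.39 in the ARHGAP8 line and 1.24 in the empty-vector line.

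The second comparison set the line labelled ARHGAP8 against the empty-vector line. In 3D all 10 genes read lower in the ARHGAP8 line by their brightest probe set, where 48.8% of 13240 genes did, with a median ratio of -0.41 log2 against 0.00. The count includes FADS2, whose 73.9 and 81.0 lay too near the floor for a direction to be read. In 2D 7 of 10 were below 0, ACSS2 among them although it read 562 in both lines, against 50.1% of all genes, with a median of -0.07. ELOVL6, at -0.02 in 3D, changed sign after quantile and cyclic loess normalization (0.03 and 0.01), which left 9 of 10. By probe set, 19 of the 23 tested were lower in 3D, against 48.2% of all, and 19 in 2D, against 50.2%. None of the 10 genes passed the plasmid test, and by limma none of all 28651 probe sets did after adjustment (0% in either direction), while 2024 had an unadjusted p under 0.05. All 3D ratios between the lines rest on the ARHGAP8 3D array with raised ribosomal RNA control signals, and the part of that array in them was not tested.

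Among the 8 genes above the floor on all arrays, FASN had the largest ratio between the lines in 3D, and ACACA, floored there, has only a bound. In 3D FASN read 517 in the ARHGAP8 line and 2283 in the empty-vector line, and in 2D 676 and 966. It was lower in the ARHGAP8 line in both cultures, by 4.42-fold in 3D and 1.43-fold in 2D. Only 1 gene of 11202 above the floor on all arrays had a lower ratio in 3D. Over the cultures FASN differed by -1.33 ± 0.27 log2, which did not pass over all probe sets (adjusted p 0.188 in limma). It passed where the fit took 1 probe set per gene (adjusted p 0.0213 in limma) or probe sets above the floor on all 4 arrays (adjusted p 0.0125 in limma), and over all 11 alternatives the adjusted p ran from 0.0125 to 1. Without either 2D array the value rests on 3D alone, at -2.14, and without either 3D array on 2D alone, at -0.51.

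SCD and FADS1 read lower in the ARHGAP8 line in both cultures, while no direction could be read for FADS2. SCD read 3339 against 4886 in 3D and 843 against 1363 in 2D, ratios of -0.55 and -0.69. The other SCD probe sets had ratios of -0.91, -1.07 and -0.98 in 3D and of -0.16, -0.68 and -0.36 in 2D, so in these 3 the gap was wider in 3D and in the brightest in 2D. Over the cultures the 4 ranged from -0.87 to -0.54 and none passed, the lowest at an adjusted p of 0.169 in limma. FADS1 read 1163 against 1725 in 3D and 956 against 1289 in 2D, ratios of -0.57 and -0.43. Its probe sets disagreed in size, since the second of them read 368 against 1236 in 3D, a ratio of -1.75, and 629 against 753 in 2D. All 3 were below 0 in both cultures, and none passed (adjusted p 0.369 to 0.645 in limma).

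The acetyl-CoA enzymes ACSS2 and ACLY had the larger ratios between the lines in 3D, a difference that was not tested. ACSS2 read 1286 in the ARHGAP8 line and 2385 in the empty-vector line in 3D, 1.85-fold lower, and 562 in both in 2D. ACLY read 2476 against 3002 in 3D and 1426 against 1530 in 2D. Its 2 dimmer probe sets had 3D ratios of -0.78 and -1.25 and 2D ratios of -0.27 and -0.10. ACACA was at least 2.33-fold lower in the ARHGAP8 line in 3D and at least 1.49-fold higher there in 2D, close to the floor. At 2-fold or more in 3D, 2 of the 10 genes were lower, FASN and ACACA, against 1.33% of all genes, and 0 were higher, against 1.11%. In 2D, 0 were that far apart either way, against 0.234% lower and 0.227% higher.

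SREBF1, by its brightest probe set, also read lower in the ARHGAP8 line in both cultures. It read 189 in the ARHGAP8 line and 227 in the empty-vector line in 3D, a ratio of -0.27, but 101 and 181 in 2D, a ratio of -0.84. Its other probe set, near the floor, had ratios of 0.19 in 3D and -0.25 in 2D. Over the cultures SREBF1 differed by -0.55 ± 0.27, which did not pass (adjusted p 0.735 in limma). ELOVL5 read 2147 against 2336 in 3D and 1756 against 1809 in 2D, and ELOVL6 451 against 459 and 733 against 701. These brightest probe sets had ratios of at most 0.12 in size. The other ELOVL5 probe sets had ratios of 0.56, -0.09 and 0.20 in 3D and of -0.04, 0.21 and -0.39 in 2D. Those of ELOVL6 had 0.03 and -0.10 in 3D and -0.34 and -0.05 in 2D.

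**Figure D3:**
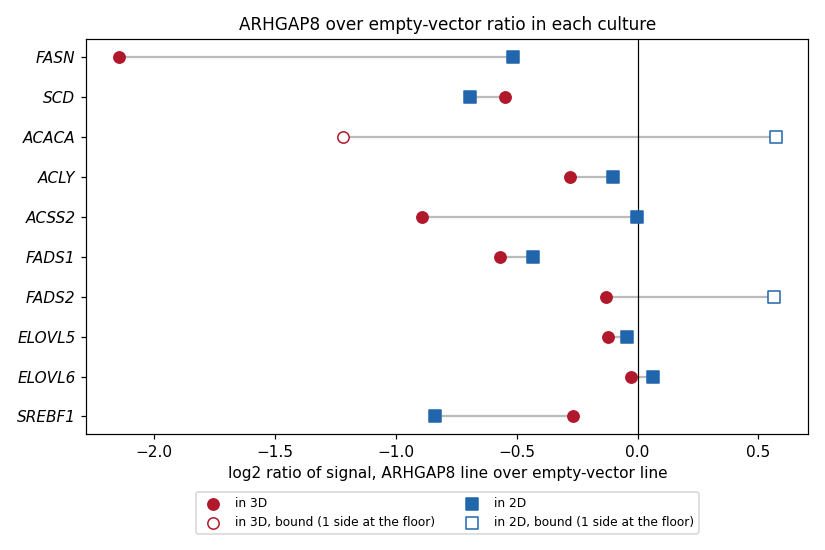
Log2 ratio of the ARHGAP8 line over the empty-vector line for the brightest probe set of each gene, in 3D (circles) and in 2D (squares); open symbols are bounds with 1 side at the floor. All 10 circles lie left of 0, with FASN at -2.14 and ACACA as a bound, while the squares lie on both sides of 0.

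The third comparison asked whether the gap between the lines depended on the culture, which 1 array per group gives as values with no test. The plasmid ratio in 3D minus that in 2D was -1.63 log2 for FASN, a value that 16 of 11202 genes reached or went below, FASN included. It was -0.89 for ACSS2, which 308 of 11202 reached or went below. For SCD it was 0.14 in the brightest probe set and -0.75, -0.39 and -0.62 in the others, so its sign depended on the probe set. For FADS1 it was -0.14 in the brightest and -1.49 and 0.23 in the others, and for ACLY -0.18 in the brightest and -0.50 and -1.15 in the others. For SREBF1 it was 0.57 and 0.45. At 2-fold or more this difference was below 0 for FASN and ACACA, 2 of 10, against 2.04% of all genes, and above 0 for 0, against 2.1%. In sign it was below 0 for 8 of 10 genes, against 49.1% of 13240, and for 16 of 23 probe sets, against 48.4%.

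Profiles over the 4 arrays were compared by the Euclidean distance between log2 signals centred on each gene's mean, over 11201 other genes. The nearest to FASN were FKBP8 at 0.37, EPIC1 at 0.60, RBM6 at 0.63, TPP1 at 0.68 and LOC105373418 at 0.69. None of these is a gene of the lists used here, and the nearest of the 10 genes was FADS1, ranked 250, at 1.12. The nearest to SCD were BHLHE40 at 0.18, IDI1, an isomerase of sterol synthesis, at 0.31, BCL2A1 at 0.32, DDIT4 at 0.33 and PI15 at 0.41. ACSS2 ranked 15 for SCD at 0.61, ACLY 97 at 1.13 and FASN 3556 at 1.87. FASN and SCD thus had profiles farther from each other than SCD and ACSS2 had.

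Most upstream regulators did not pass for the culture. Of 20 tested regulators of SREBP and of lipogenic transcription, 4 rose in 3D and 1 fell, where 1.84% and 2.27% of all genes did, and the median was -0.03 log2 against 0.03 over all genes. INSIG1, which retains SCAP and is itself a SREBP target, rose by 2.51 ± 0.18 (adjusted p 3.69e-06 in limma). INSIG2, its paralog, rose by 0.89 ± 0.21 and LPIN1, a phosphatidate phosphatase that also acts on SREBP, by 1.26 ± 0.19, with its other probe sets at 0.67 and 0.86. MED15, a Mediator subunit bound by SREBP, fell by 0.88 ± 0.21. SREBF2, the sterol-pathway relative of SREBF1, had 527 and 879 in 3D in the ARHGAP8 and empty-vector lines, against 402 and 494 in 2D, a difference of 0.61 that missed the threshold (limma adjusted p 0.0799). SCAP, the escort protein, read -0.63 without passing (adjusted p 0.187 in limma). Between the lines 16 of 20 read lower in the ARHGAP8 line in 3D, against 48.8% of all genes, and 11 of 20 in 2D, against 50.1%, and 0 passed.

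Fatty acid synthesis consumes citrate and NADPH. Of 14 tested genes listed for this supply, the inhibitor PDK1 included, 4 rose in 3D and 0 fell. Of all genes 1.84% and 2.27% did, and the median of the list was 0.23. ME1, the cytosolic malic enzyme that makes NADPH, rose by 1.70 ± 0.19 (adjusted p 0.000142 in limma), with signals of 714 and 740 in 3D in the ARHGAP8 and empty-vector lines, against 248 and 203 in 2D, and its other probe sets read 0.50 and 1.85. SLC25A1, the mitochondrial citrate carrier, rose by 1.17 ± 0.21 and IDH1, a cytosolic NADPH-making dehydrogenase, by 1.09 ± 0.17, although the other IDH1 probe sets read 0.032 and 0.73. PDK1, which inhibits pyruvate dehydrogenase and so opposes citrate formation, rose by 1.45 ± 0.18, with others at 0.49 and 1.36. In 3D SLC25A1 read 358 in the ARHGAP8 line and 672 in the empty-vector line, a ratio of -0.91, close to that of ACSS2, whereas ME1 read -0.05.

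Genes that activate or carry fatty acids rose in 3D for 3 of 9 tested and 1 fell, against the same 1.84% and 2.27% of all genes, with a median of 0.31. ACSL1, a long-chain acyl-CoA synthetase, rose by 1.55 ± 0.16, ACSL4, which prefers arachidonate, by 0.79 ± 0.19 and the fatty acid binding protein gene FABP7 by 1.40 ± 0.24, while the other ACSL4 probe sets read between -0.0011 and 0.31. SLC27A4, a fatty acid transport protein, fell by 2.19 ± 0.27, with signals of 45.6 and 73.7 in 3D, near or below the floor, against 347 and 317 in 2D. Among other synthesis, elongation and desaturation enzymes 2 of 14 rose and 1 fell, against 1.84% and 2.27%, with a median of 0.14. HSD17B12, the ketoacyl-CoA reductase of elongation, rose by 1.27 ± 0.16 and SCD5, the other human stearoyl-CoA desaturase, by 0.79 ± 0.19, while the dehydratase HACD2 fell by 0.63 ± 0.16. The other HSD17B12 probe set read 0.32. SCD5 read higher in the ARHGAP8 line in 3D (566 against 412) and in 2D (328 against 237), unlike SCD, and did not pass between the lines.

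Genes of the downstream use of fatty acids passed in both directions, except those of lipid uptake. In glycerolipid and phospholipid assembly 2 of 21 rose in 3D and 2 fell, against 1.84% and 2.27%, with a median of -0.21. The lipid droplet coat gene PLIN2 rose by 0.99 ± 0.16 and PCYT2 of phosphatidylethanolamine synthesis by 0.86 ± 0.22, while the acyltransferases LPCAT1 and MBOAT7 fell by 1.53 ± 0.29 and 1.08 ± 0.27. The other PLIN2 probe set read 0.50. In fatty acid oxidation and lipolysis 2 of 25 rose and 1 fell, against 1.84% and 2.27%, with a median of 0.10. HADHA, a subunit of the mitochondrial trifunctional protein, rose by 1.15 ± 0.16 and ETFB by 0.89 ± 0.21, and the monoglyceride lipase MGLL fell by 0.89 ± 0.18. The other HADHA probe sets read 0.38 and 0.42. Of 6 tested genes of lipid uptake 0 passed, and the largest values were 0.76 for the lipoprotein receptor gene VLDLR and -0.39 for MYLIP, a ubiquitin ligase of lipoprotein receptors. In 3D the ARHGAP8 line read lower for 16 of 21 genes of glycerolipid assembly, 16 of 25 of oxidation and 5 of 6 of uptake. It also read lower for 9 of 14 genes of citrate and NADPH supply and 7 of 9 of activation and binding. Of other synthesis enzymes 6 of 14 read lower, and of all genes 48.8% did. No gene of these lists passed between the lines. The largest values there included -0.77 for MED15, -0.74 for the transcription factor gene USF2, 0.74 for the phospholipid synthesis gene CEPT1, -0.68 for the acyltransferase gene AGPAT1 and -0.72 for SCARB1, a lipoprotein receptor gene. Other tested probe sets had medians of -0.06 for USF2, 0.20 for CEPT1, -0.48 for AGPAT1 and -0.61 for SCARB1, and MED15 had no other.

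**Figure D4:**
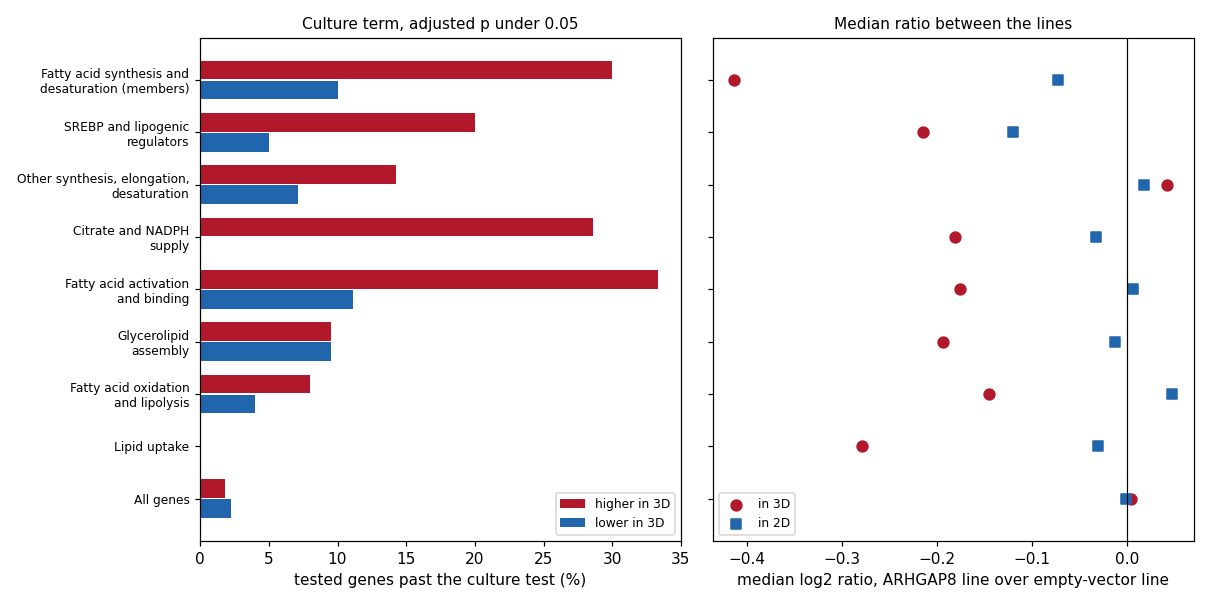
Left, the share of tested genes in each list, in percent, that rose (red) or fell (blue) in 3D by the culture test; right, the median log2 ratio of the ARHGAP8 line over the empty-vector line in 3D (circles) and in 2D (squares), with all 13240 genes at the bottom. The 10 genes described here have the median farthest below 0 in 3D, at -0.41, against 0.00 over all genes. Most other lists also lie below 0 in 3D, with lipid uptake at -0.28, regulators at -0.21 and glycerolipid assembly at -0.19. Citrate and NADPH supply and activation and binding lie at -0.18, oxidation and lipolysis at -0.15, and other synthesis enzymes at 0.04.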

How the data were processed

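Gene expression was measured on 4 Affymetrix arrays, 1 per combination of plasmid and culture. Each array came as the authors' deposited signal intensities, linear and unlogged, and the submitters' processing notes name MAS5. Its version is not given in the sources used here. Per the labels' protocols, the RNA was linearly amplified through repeated in vitro transcription. Each array was scaled to the same 2% trimmed mean over all 54675 probe sets. Each array was then scaled to the same 2% trimmed mean, values under the median (72.3) were set to it, and log2 was taken. Genes were named from the platform annotation (41091 probe sets with 1 symbol, 1801 with several, 11721 with none). For 41037 of those with 1 symbol, the symbol was checked through the gene identifier. A gene was counted by its brightest probe set; genes without a probe set of their own were not analysed here, FADS1 excepted. Probe sets above the floor on at least 2 arrays were fitted in limma 3.58.1 (R 4.3.3) as plasmid plus culture, eBayes with an intensity trend, two-sided, Benjamini-Hochberg adjusted. The fit was also run on simulated data with independent noise and known culture changes, equal in both lines. Such data check the computation only and cannot show the error between real cultures. The number of arrays limits the precision. The p-values rest on each gene's departure from the additive terms, moderated over probe sets. A culture difference that varies between the lines, such as that of FASN or ACACA, therefore enters the error. There were no replicate cultures, so the spread between them is not measured. The 10 genes, the lists and the naming rule (all 10 genes; per list up to 4 genes past the test; the 5 nearest profiles; the SREBP sensor genes) were chosen with earlier results of these data known. In all, 11 alternative settings and the omission of each array were tried.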

Additional observations from a re-analysis of the deposited data

Results flagged for a closer look

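The lines moved opposite ways between 3D and 2D for FASN and ACACA, a difference that was not tested, and in sign also for FADS2, whose signals near the floor give no direction. The 3D over 2D log2 ratio of the ARHGAP8 line minus that of the empty-vector line was -1.63 for FASN, -1.79 for ACACA and -0.69 for FADS2, with ACACA and FADS2 at the floor on some arrays. Among dimmer probe sets the lines also went opposite ways for the second-brightest of FADS1 (-1.49), the dimmest of ELOVL5 (-0.30) and the dimmer of SREBF1 (0.45), where the brightest probe set of the same gene went 1 way in both lines. Outside the genes compared, the 28S ribosomal RNA control probe sets had a median signal of 1390 on the ARHGAP8 3D array, against at most 119 on the other arrays. That array enters each of these differences, and its part in them was not tested.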

How the results depend on the processing

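The count of 3 genes that rose in 3D was kept under 8 of 11 settings in number; it was 2 without the intensity trend, 1 with the mean over a gene's probe sets and 0 without a filter on dim probe sets, where floored probe sets had no spread and limma called nothing among 54613 (3266 at an unadjusted p under 0.05). The 1 gene that fell in 3D, ELOVL6, became 0 after quantile normalization, cyclic loess normalization, with no floor, with the floor at the 40th percentile, with no filter, with probe set means, without the intensity trend and with robust hyperparameters. For the plasmid, 0 genes became 1, FASN, with 1 probe set per gene and with probe sets above the floor on all 4 arrays. Leaving out 1 array leaves a single ratio with no test. At 2-fold, 2 to 4 genes were then higher in 3D (4 without either ARHGAP8 array, 2 without either empty-vector array) and 0 lower. In the ARHGAP8 line 0 were then higher and 0 to 2 lower, the 2 without either 2D array. Omitting an array other than the ARHGAP8 3D array was chosen after seeing the data, as was recounting the genes below 0 in 3D under other scalings. Directions turned for FADS2 in 3D, at 0.19 with no floor and 0.10 with the floor at the 40th percentile. They also turned for ELOVL5 (0.037) and ELOVL6 (-0.070) between the lines with probe set means. None of these passed in limma under any setting, and the cause was not tested. Over all probe sets, culture calls were 466 higher and 535 lower, against 274 and 215 after quantile normalization, 298 and 218 after cyclic loess, 301 and 287 with no floor, 199 and 161 without the trend and 25 and 12 with means per gene. Plasmid calls were 0, against 15 higher and 13 lower on probe sets above the floor on all arrays, 9 and 8 with 1 probe set per gene, and 0 and 1 with robust hyperparameters. No paired analysis was possible because the labels give no replicate numbers and each group holds 1 array. The additive fit itself takes the culture difference within each line and the plasmid difference within each culture. FADS2, ACACA and the dim probe sets of FASN are limited by signals near the floor.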

Other observations

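Among the profiles nearest to FASN, FKBP8, a mitochondrial immunophilin gene, read 94.0 in the ARHGAP8 line and 347 in the empty-vector line in 3D, against 147 and 185 in 2D. TPP1, a lysosomal peptidase gene, read 858 in the ARHGAP8 line and 2065 in the empty-vector line in 3D, against 840 and 959 in 2D. Neither is a lipogenic enzyme gene, and both had their wider gap between the lines in 3D, as FASN did.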
